A study of Mus musculus with 6 samples.

Results

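Hox genes and limb identity factors were described in 3 mouse osteosarcoma cell lines and 3 cultures of a mouse osteoblast line. The members were the probe sets whose single annotated symbol is a Hoxa, Hoxb, Hoxc or Hoxd gene, together with Pitx1, Tbx4, Tbx5 and Tbx15. They came to 41 genes of 19938 measured: 10 of the Hoxa cluster, 9 each of Hoxb, Hoxc and Hoxd, and 4 limb factors. Each member had 1 probe set. Hoxb8 was not analysed here. The lines OS_493H, OS_494H and OS_716H grew out of primary tumours of C57Bl6 mice with floxed alleles of both p53 (fl/fl) and Rb (fl/fl) and Cre under the Osterix promoter (Osx-Cre+), which is active in the osteoblast lineage. Per the labels OS_493H came from the hip of a female aged 188, OS_494H from the hip of a male aged 190, and OS_716H from the tibia of a female aged 226, with no unit of age. The reference was KUSA4b10, a marrow stromal line labelled C57Bl6, grown for 21 days past confluence with 50 ug/ml ascorbate and hybridised as 3 samples. Lines and cultures had the same basal medium, and no differentiation step is given for the lines, so tumour origin and growth or differentiation state cannot be told apart. Each line is 1 array, so tumour site, line and animal cannot be told apart. The 3 cultures are 1 cell line, and their titles number them rep 1 to 3 and Ex1 to Ex3, which may stand for experiments but is not explained, so p-values cover the spread among these samples only.

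Hox genes encode homeodomain transcription factors that lie in 4 clusters, and their order within a cluster matches the head-to-tail order of the body regions where they act in the embryo. Genes with the same number in different clusters are paralogues. In the limb, the posterior genes pattern the skeleton from shoulder or hip to digits: paralogues 9 and 10 the upper segment, paralogue 11 the middle segment with tibia and fibula, and paralogue 13 the hand and foot. Pitx1 and Tbx4 act in the hindlimb, Tbx5 in the forelimb, and Tbx15 in limb and shoulder girdle bone. Skeletal cells of the adult keep part of this pattern. On assembly GRCm38.p6 the Hoxa genes lie on chromosome 6, Hoxb on 11, Hoxc on 15 and Hoxd on 2.

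Rb1, a gene floxed in the model, stood at 9.26 in OS_493H, 9.70 in OS_494H and 9.87 in OS_716H, against 10.68, 10.66 and 10.66 in cultures 1 to 3, on the log2 scale of the deposited values. The difference was -1.05 ± 0.15 (SE, limma adjusted p = 0.00427); whether its probes lie in the deleted part was not examined. The array labelled OS_716H went against its labelled sex. Xist, the RNA of the inactive X chromosome, was 12.62 in OS_493H but 5.50 in OS_716H, and the Y-linked gene Uty was 10.06 in OS_716H, against 9.90 in the male line OS_494H and 5.11 in OS_493H. Comparisons between the groups that turn on this array are also given without it, and orders of the lines that include it rest on its label. Of the osteoblast markers, 5 of 9 measured fell in the lines, and their mean level per array was 9.03 to 9.68 in the lines, against 11.19 to 11.90 in the cultures. Adipocyte markers fell in 8 of 9 cases (7.53 to 8.03 in the lines, against 10.67 to 11.33 in the cultures), and 6 of 6 proliferation genes rose (11.30 to 11.69 in the lines, against 8.45 to 9.54 in the cultures). Chondrocyte, skeletal muscle, blood cell and endothelial markers passed the test for 1 of 7 (lower), 1 of 6 (higher), 1 of 7 (higher) and 0 of 5 genes; of the endothelial genes 0 had an unadjusted p under 0.05 in limma. In such bulk samples fewer cells of a type and less RNA per cell cannot be told apart, and the part of these cell states in the differences below was not tested.

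Between the groups, no larger a share of the Hox and limb genes than of all genes passed the test. Of the 41 members, 4 rose and 3 fell in the osteosarcoma lines (17.1%), where 24.6% of all genes passed the same test, 13.2% upward and 11.4% downward (limma across all genes, Benjamini-Hochberg adjusted p under 0.05). Hoxa6, Hoxa10, Hoxd8 and Tbx15 rose, Hoxb3, Hoxb4 and Hoxb7 fell, and no Hoxc gene passed. The median difference over the members was 0.05, beside -0.02 over all genes. Without regard to a test, the 3 lines did not overlap the 3 cultures for 13 members, 9 higher and 4 lower, where 41.5% of all genes did not overlap (20.5% higher and 21% lower). With 3 samples against 3 an exact permutation test cannot go below p = 0.1. At an unadjusted p under 0.05, 15 of the 41 members would have passed, beside 7121 of all 19938 genes, a similar share. Of the members, 25 lay above the median of all values (7.53) in at least 1 group mean, among them 8 of 10 Hoxa, 7 of 9 Hoxb, 8 of 9 Hoxc and 0 of 9 Hoxd genes. Among genes above that median 6 of 25 members passed, beside 38.4% of all such genes. This filter uses the group means that the test compares, so a gene high in only 1 group can enter through it. Of the members that passed, Hoxb4 (means 7.30 in the lines and 8.12 in the cultures) and Hoxb7 (7.49 and 8.03) entered through the cultures only. The filtered shares are therefore a description and no separate support. The arrays carry no detection call, so whether the dimmer members were detected is not known.

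**Figure D1:**
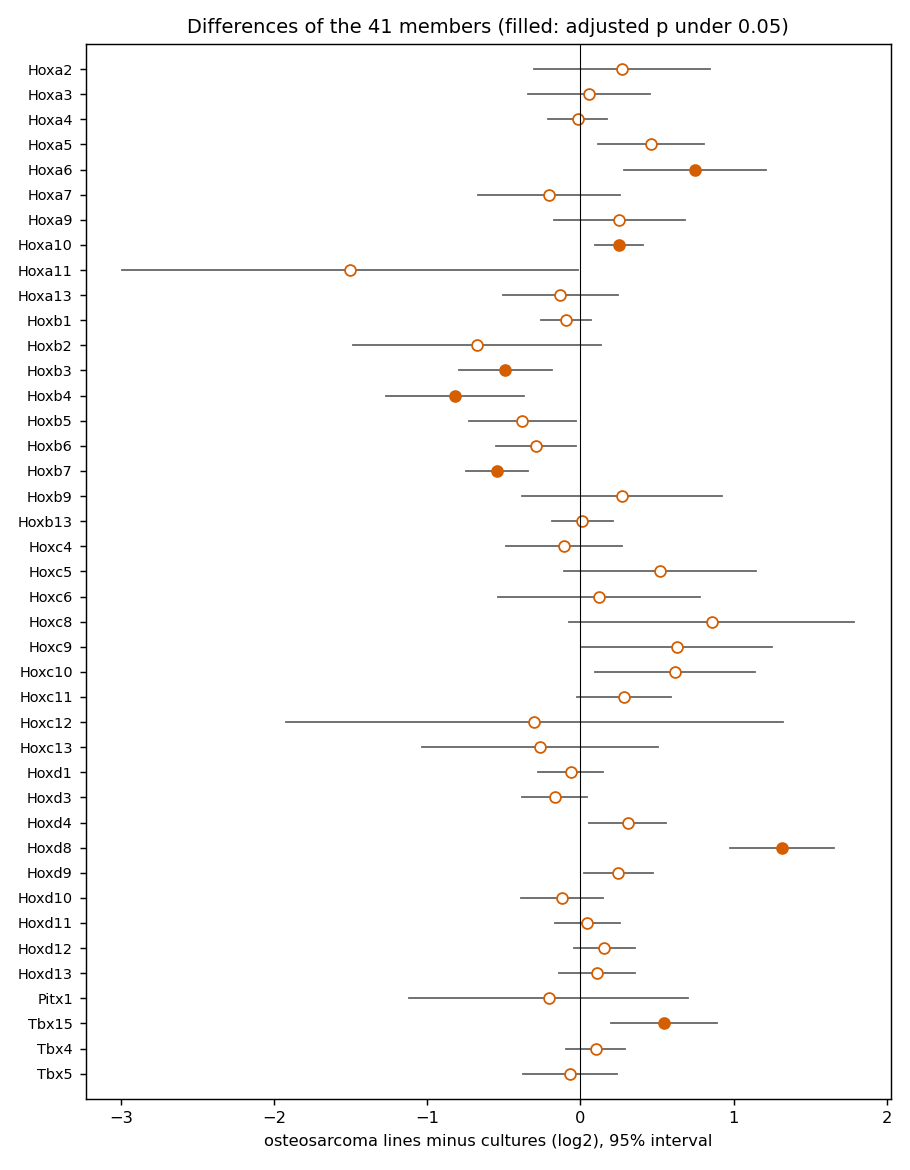
Log2 difference of each member, osteosarcoma lines minus KUSA4b10 cultures (x axis), with its 95% interval from limma, n = 3 arrays a group. Filled points passed at an adjusted p under 0.05; Hoxd8 lies furthest to the right, and Hoxa11, with the lowest difference, has an interval from -2.99 to -0.02 and did not pass after adjustment.

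Single lines stood apart from the other lines at several of these genes. In 6 of the 41 members (14.6%) 1 line stood more than 1 log2 unit, a factor of 2, from both other lines, where 2.82% of all genes did so. Among the genes above the median of all values the share was 6 of 25 members (24%) and 4.15% of all such genes. Hoxa11, counted among them, entered that filter through the cultures only (means 7.28 in the lines and 8.78 in the cultures). With a gap of 0.5 the count was 16 members (39%), beside 10.7% of all genes, and 15 of 25 above the median, beside 15.8% of such genes. Each line is a single array, so these gaps have no test and no replicate error of their own. The 6 members were Hoxa11, Hoxb2, Hoxc8, Hoxc12, Hoxc13 and Pitx1, and none of them passed the test between the groups (limma). OS_493H stood apart in Hoxb2, Hoxc8 and Pitx1 (0.843% of all genes), OS_494H in Hoxc12 and Hoxc13 (1.42%) and OS_716H in Hoxa11 (0.878%). In 9 members at least 1 line lay more than 1 log2 unit outside all cultures, beside 10.3% of all genes. These were 4 members in OS_493H (6.2% of all genes), 5 in OS_494H (7.03%) and 3 in OS_716H (6.15%), with Hoxd8 outside in each line and Hoxa11 in both hip lines. The SD over the 3 lines exceeded that over the 3 cultures for 38 of 41 members (92.7%) and for 65.8% of all genes. The cultures are samples of 1 line and the osteosarcoma lines come from different animals.

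Over the 41 members, the mean absolute difference between 2 osteosarcoma lines was 0.44 for OS_493H and OS_494H, 0.47 for OS_493H and OS_716H and 0.47 for OS_494H and OS_716H. Between a line and a culture it ran from 0.33 to 0.56. Over all genes the order was different, at 0.22 to 0.27 for pairs of lines and 0.36 to 0.41 for line and culture pairs. Between 2 cultures the values were 0.11 to 0.13 for the members and 0.11 to 0.17 for all genes. The array labelled OS_716H had the smallest mean distance from the culture mean at the members (0.32), against 0.43 for OS_493H and 0.53 for OS_494H. Over all genes it also had the smallest, at 0.36, against 0.37 for OS_493H and 0.39 for OS_494H. It was the line nearest the culture mean for 19 members, where it was nearest for 39% of all genes. OS_493H was nearest for 12 members (28.8% of all genes) and OS_494H for 10 (32.2% of all genes). This comparison was chosen after the values were seen and has no test.

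**Figure D2:**
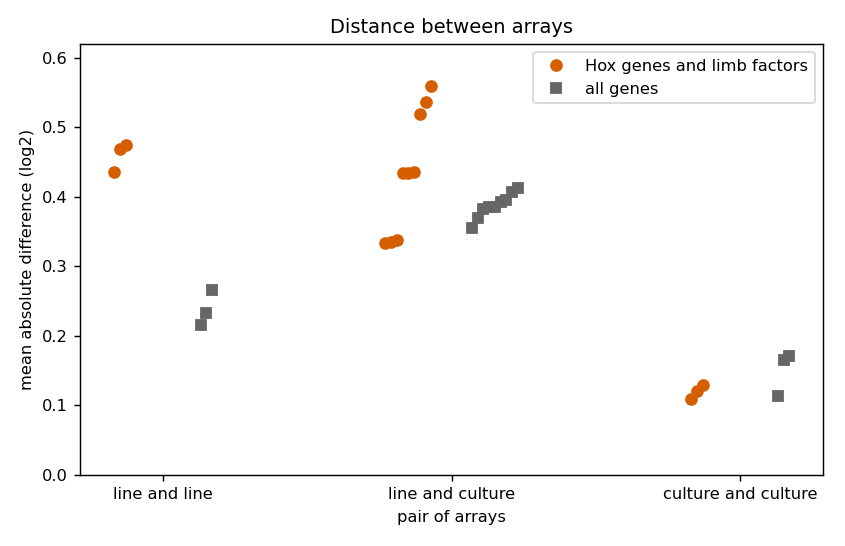
Mean absolute log2 difference (y axis) for each pair of arrays, by kind of pair (x axis), over the 41 members (circles) and over all 19938 genes (squares). Pairs of lines lie at 0.44 to 0.47 for the members and at 0.22 to 0.27 for all genes, while pairs of cultures lie at 0.11 to 0.13 and at 0.11 to 0.17.

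Hoxa11, a gene of the middle limb segment, had the largest gap of 1 line to the nearer other line among the members, while Hoxc12 had the wider range over the lines (2.91, beside 2.501 for Hoxa11). It was 6.62 in OS_493H and 6.35 in OS_494H, both labelled hip, and 8.86 in OS_716H, labelled tibia, against 8.68, 8.80 and 8.87 in the cultures. The hip lines lay far below every culture, and the array labelled tibia lay within the range of the cultures. The gap from OS_716H to the nearer hip line was 2.23 log2 units. Over all 3 lines the difference from the cultures was -1.51 ± 0.62 (SE) and did not pass (limma adjusted p = 0.136). Without the array labelled OS_716H the hip lines were lower than the cultures (difference -2.29, limma adjusted p = 9.21e-04). That fit leaves out a sample whose value at this gene was known, so its p describes the 2 remaining lines only.

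On either side of Hoxa11 the lines differed less. Hoxa10, of the upper limb segment, was 9.39, 9.39 and 9.46 in OS_493H, OS_494H and OS_716H, against 9.14, 9.18 and 9.17 in the cultures. The lines spanned 0.07 log2 units, and all lay slightly above all cultures. Hoxa13, of the hand and foot, was 7.35, 7.40 and 7.89 in the lines, against 7.54, 7.77 and 7.72 in the cultures, with OS_716H highest by a gap of 0.49. As in Hoxa11 both hip lines lay below every culture, by 0.19 and 0.14, and OS_716H lay 0.12 above the highest.

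The promoters of 4 Hox genes are shown because the results turn on them: Hoxa11 differed between lines, Hoxa10 is its neighbour with similar values in all lines, Hoxd8 had the largest rise between the groups and Hoxb4 the largest fall past the test. Each entry has 300 bases around an annotated start, on the strand of the gene and 5′ to 3′, from RefSeq on build GRCm38.p6. Capitals mark each CG, the dinucleotide at which mammalian DNA is methylated. Methylation was not analysed here. The entries are chr6:52245761-52246060 (minus strand) for Hoxa11, chr6:52240805-52241104 (minus strand) for the one of 2 Hoxa10 starts that is nearer to Hoxa11, chr2:74704365-74704664 (plus strand) for Hoxd8 and chr11:96318017-96318316 (plus strand) for Hoxb4.
Hoxa11: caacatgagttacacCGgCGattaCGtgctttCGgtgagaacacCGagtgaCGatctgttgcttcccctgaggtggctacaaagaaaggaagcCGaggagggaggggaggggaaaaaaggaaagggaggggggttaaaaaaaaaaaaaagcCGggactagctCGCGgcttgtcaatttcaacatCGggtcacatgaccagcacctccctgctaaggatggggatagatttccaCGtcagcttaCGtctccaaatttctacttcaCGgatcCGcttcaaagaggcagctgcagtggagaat
Hoxa10: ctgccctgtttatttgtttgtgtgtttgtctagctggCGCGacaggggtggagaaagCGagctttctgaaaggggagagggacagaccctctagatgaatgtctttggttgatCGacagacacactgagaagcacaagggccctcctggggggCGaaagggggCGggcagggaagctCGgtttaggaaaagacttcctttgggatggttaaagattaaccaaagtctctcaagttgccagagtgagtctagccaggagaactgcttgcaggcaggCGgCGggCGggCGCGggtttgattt
Hoxd8: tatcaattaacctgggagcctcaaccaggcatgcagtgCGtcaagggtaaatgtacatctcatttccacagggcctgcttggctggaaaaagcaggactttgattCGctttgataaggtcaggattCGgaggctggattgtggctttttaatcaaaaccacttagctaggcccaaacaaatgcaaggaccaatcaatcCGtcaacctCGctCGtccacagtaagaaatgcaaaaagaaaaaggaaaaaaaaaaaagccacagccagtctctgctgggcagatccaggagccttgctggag
Hoxb4: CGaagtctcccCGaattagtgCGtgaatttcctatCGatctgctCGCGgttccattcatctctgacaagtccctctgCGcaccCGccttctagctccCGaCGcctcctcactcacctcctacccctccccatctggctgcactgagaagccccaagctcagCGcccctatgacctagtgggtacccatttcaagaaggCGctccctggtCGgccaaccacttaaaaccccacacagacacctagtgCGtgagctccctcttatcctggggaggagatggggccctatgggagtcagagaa

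The Hoxa11 entry held 15 CG, the Hoxa10 entry 12, the Hoxd8 entry 6 and the Hoxb4 entry 14. Among all 32851 promoter entries the median was 7, and 34.6% held at least 15, 39.6% at least 12, 56.4% at least 6 and 36.3% at least 14. The 24 entries that matched 22 of the members held 4 to 45 CG, with a median of 14.5. Short motifs were searched on both strands. The letters TATAAA occur in 13.6% of all entries and the letters CCAAT in 37.4%. The letters GGGCGG, which hold a CG, occur in 35.7% and the letters TTTATG in 11.9%, and motifs may overlap. Hoxa11 and Hoxb4 held 0 matches to each of these, Hoxa10 held GGGCGG 2 times and Hoxd8 held CCAAT 1 time. These matches describe letters in the window only.

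Within the Hoxa cluster, 2 of 10 genes (20%) rose in the lines and 0 fell, beside 13.2% and 11.4% of all genes. Hoxa6, a central gene of the thoracic axial skeleton, was 9.06, 9.71 and 8.96 in OS_493H, OS_494H and OS_716H, against 8.46, 8.51 and 8.50 in the cultures. All lines lay above all cultures, and OS_494H was highest by a gap of 0.65. The difference was 0.75 ± 0.19 (SE), a 1.68-fold higher level (limma adjusted p = 0.0331). Hoxa10 was higher by 0.25 ± 0.07 (SE, limma adjusted p = 0.0332), a small shift with tight groups. Its call was lost when any 1 array was left out, and with an intensity trend in the moderation. That of Hoxa6 was lost when any 1 culture or OS_493H was left out.

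OS_494H was the highest line across much of this cluster. In Hoxa7, active in the trunk, it was 9.83, beside 9.15 in OS_493H and 9.10 in OS_716H, with cultures at 9.58, 9.56 and 9.55. The cultures thus lay between OS_494H and the other lines, and the difference of -0.20 did not pass (limma adjusted p = 0.522). OS_494H stood above both other lines by a gap of 0.51 in Hoxa2, a gene of the hindbrain and second pharyngeal arch, by 0.68 in Hoxa7 and by 0.54 in Hoxa9. Hoxa9, of the upper limb segment, was 9.58, 10.22 and 9.68 in the lines, against 9.68, 9.62 and 9.41 in the cultures, with overlapping groups. Hoxa5, which patterns the neck and upper thorax, was 9.02, 9.52 and 9.10 in the lines, against 8.81, 8.83 and 8.62 in the cultures. Its groups did not overlap, and its difference of 0.46 had an adjusted p of 0.0638 (limma). Hoxa3 and Hoxa4, both anterior trunk and neck genes, differed by 0.06 and -0.02 between the groups, with 95% intervals from -0.34 to 0.45 and from -0.21 to 0.17; the sign for Hoxa4 flips under other scalings (0.02 after quantile normalisation and 0.05 after median centring).

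**Figure D3:**
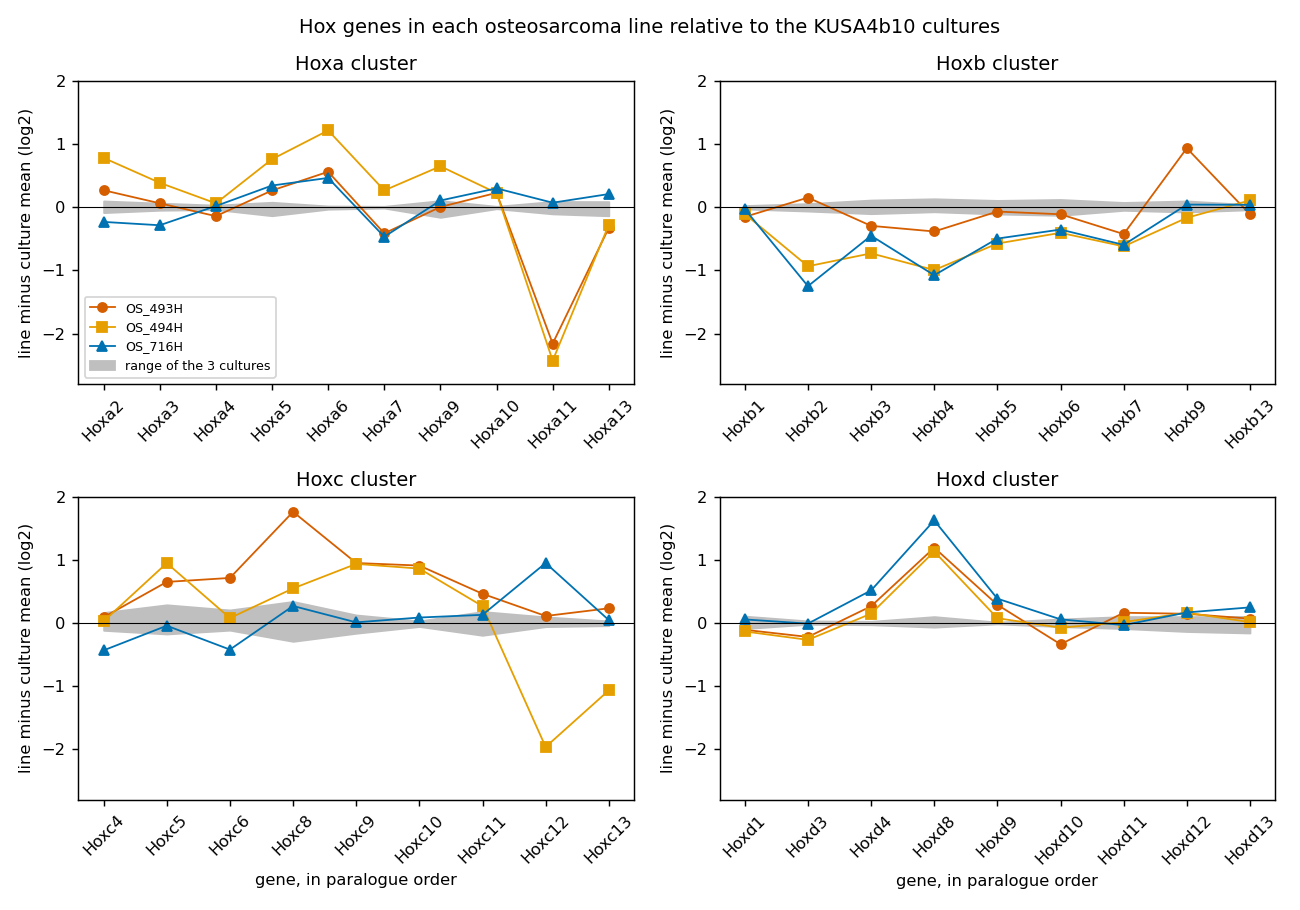
Log2 expression of each osteosarcoma line minus the mean of the 3 cultures (y axis) for the genes of each Hox cluster in paralogue order (x axis), 1 array per line; the grey band is the range of the 3 cultures. OS_493H and OS_494H drop below the cultures at Hoxa11, OS_494H drops at Hoxc12 and Hoxc13, and all lines lie above the cultures at Hoxd8.

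The Hoxb cluster held all members that fell. Of its 9 genes 3 fell (33.3%) and 0 rose, beside 11.4% and 13.2% of all genes. The median difference was -0.38, beside -0.02 over all genes. Hoxb4, which acts in the neck region of the axis and in blood stem cells, was 7.74, 7.13 and 7.04 in OS_493H, OS_494H and OS_716H, against 8.26, 8.06 and 8.05 in the cultures. Each line lay below each culture, OS_493H least so. The difference was -0.82 ± 0.19 (SE), a 1.76-fold lower level (limma adjusted p = 0.022).

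Hoxb7, a trunk gene, was 7.61, 7.41 and 7.44 in the lines, against 8.11, 8.005 and 7.98 in the cultures, with no overlap and a narrow spread in both groups. Its difference was -0.55 ± 0.08 (SE, limma adjusted p = 0.00499), and it passed with any 1 array left out (adjusted p 0.0083 to 0.0298). Hoxb3, a hindbrain and neck gene, was 8.69, 8.25 and 8.53 in the lines, against 9.10, 8.97 and 8.88 in the cultures, a difference of -0.49 ± 0.13 (SE, limma adjusted p = 0.0323). The calls of Hoxb3 and Hoxb4 were lost when any 1 culture or OS_716H was left out. That of Hoxb3 was also lost after median centring of each array. Hoxb5 and Hoxb6, the neighbours between Hoxb4 and Hoxb7 in paralogue order, differed by -0.38 and -0.29 with overlapping groups and did not pass (limma adjusted p = 0.113 and 0.109). Hoxb13, a gene of the tail end of the axis and of the prostate, was 6.41 to 6.63 in the lines, against 6.48 to 6.57 in the cultures.

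Hoxb1, a hindbrain gene, was 7.82, 7.86 and 7.94 in the lines, against 7.996, 7.94 and 7.97 in the cultures. Its groups were separated by less than 0.01 and it did not pass (limma adjusted p = 0.387).

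OS_493H stood apart in several genes of this cluster. Hoxb2, a hindbrain gene, stood at 8.85 in OS_493H, 7.77 in OS_494H and 7.45 in OS_716H, against 8.70, 8.76 and 8.64 in the cultures. OS_493H lay just above the cultures, while OS_494H lay 0.87 and OS_716H 1.19 below the lowest culture. Hoxb9, at the lower thorax, was 8.61 in OS_493H but 7.51 and 7.71 in OS_494H and OS_716H, with cultures at 7.65, 7.60 and 7.77. Here OS_493H alone was high, by a gap of 0.89 to the nearer line. Without OS_493H, Hoxb2 was lower than the cultures (difference -1.09, limma adjusted p = 0.00486), and Hoxb5 also passed (difference -0.54, adjusted p = 0.0174). OS_493H was known to be the highest line in both genes, so these p-values describe the remaining lines only.

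No gene of the Hoxc cluster passed the test between the groups, with 9 of 9 not past it. At an unadjusted p under 0.05 were 2 of the 9, beside 7121 of all 19938 genes (limma). The median SD of the cluster over the lines was 0.54, beside 0.15 over the cultures. Hoxc12, a posterior gene next to Hoxc13, stood at 9.79 in OS_493H, 7.71 in OS_494H and 10.63 in OS_716H, against 9.77, 9.62 and 9.64 in the cultures. OS_494H lay 1.91 below the lowest culture and OS_716H 0.85 above the highest, while OS_493H lay 0.01 above the highest. Hoxc13, needed for hair and nails, was 8.67, 7.37 and 8.49 in the lines, against 8.47, 8.40 and 8.46 in the cultures. OS_494H alone was low, by a gap of 1.11 to the nearer line. The differences between the groups, -0.30 ± 0.68 for Hoxc12 and -0.26 ± 0.32 for Hoxc13 (SE), turn positive without OS_494H (0.53 and 0.14), so that 1 line decides their sign. Hoxc4, at the front end of the cluster, was 6.76, 6.70 and 6.24 in the lines, against 6.62, 6.84 and 6.55 in the cultures.

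Further forward, Hoxc8, a thoracic gene, stood at 9.99 in OS_493H, 8.78 in OS_494H and 8.50 in OS_716H, against 8.19, 8.57 and 7.94 in the cultures. OS_493H lay 1.42 above the highest culture, and OS_716H lay within the range of the cultures. Hoxc6, also thoracic, was 9.60 in OS_493H and 8.97 and 8.47 in OS_494H and OS_716H, with 8.80, 8.78 and 9.10 in the cultures. The order of the lines was the same in both genes, OS_493H above OS_494H above OS_716H.

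Hoxc9, at the lower thorax, and Hoxc10, at the lumbar level and in the hindlimb, separated the hip lines from the array labelled tibia. Hoxc9 stood at 9.60 in OS_493H, 9.58 in OS_494H and 8.66 in OS_716H, against 8.78, 8.49 and 8.69 in the cultures. Hoxc10 was 10.05, 10.00 and 9.22 in the lines, against 9.08, 9.17 and 9.17 in the cultures. The hip lines lay 0.01 apart in Hoxc9 and 0.05 apart in Hoxc10, and above every culture. OS_716H lay within the range of the cultures in Hoxc9 and 0.05 above the highest in Hoxc10. Hoxc5 had a similar order, at 8.49, 8.78 and 7.79 in the lines, against 7.73, 8.12 and 7.66 in the cultures. Without the array labelled OS_716H the 3 genes passed against the cultures, with differences of 0.94, 0.88 and 0.80 (limma adjusted p = 0.00407, 0.00237 and 0.0245). The low values of OS_716H in these genes were known, so these p-values describe the hip lines only. With it, the differences were 0.63, 0.62 and 0.52 and did not pass (limma adjusted p = 0.134, 0.0897 and 0.216). With a gap of 0.5, OS_716H stood apart in 6 members, the same number as for each other line (3.77% of all genes for OS_716H, 2.69% for OS_493H and 5.83% for OS_494H), and site and line cannot be told apart.

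**Figure D4:**
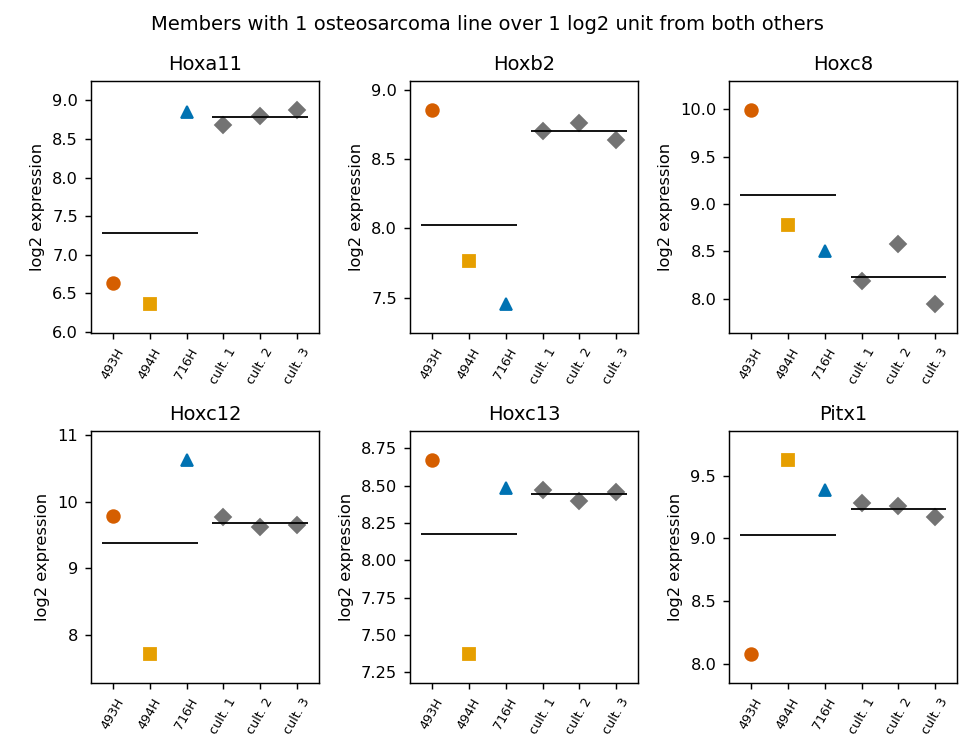
Log2 expression on each array (y axis; osteosarcoma lines left, KUSA4b10 cultures 1 to 3 right) for the 6 members in which 1 line stood more than 1 log2 unit from both others; horizontal bars are group means, n = 3 arrays. OS_716H is apart in Hoxa11, OS_493H in Hoxb2, Hoxc8 and Pitx1, and OS_494H in Hoxc12 and Hoxc13.

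In the Hoxd cluster 1 of 9 genes (11.1%) rose and 0 fell, beside 13.2% and 11.4% of all genes. Hoxd8, a trunk gene, was 7.09, 7.03 and 7.52 in OS_493H, OS_494H and OS_716H, against 5.996, 5.87 and 5.83 in the cultures. All lines lay more than 1 log2 unit above all cultures. The means were 7.21 ± 0.27 in the lines, against 5.90 ± 0.09 in the cultures (SD, n = 3 each), a difference of 1.31 ± 0.14 (SE) or 2.49-fold (limma adjusted p = 0.0016). It was the single member with at least a 2-fold change past the test, and it passed with any 1 array left out (adjusted p 0.00192 to 0.0116). Its group means lie below the median of all values, so it was not tested when dim genes were filtered out.

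The neighbours of Hoxd8 moved less. Hoxd4, an anterior trunk gene, was 6.87, 6.75 and 7.12 in the lines, against 6.58, 6.63 and 6.61 in the cultures. Hoxd9, of the upper limb segment, was 7.45, 7.24 and 7.55 in the lines, against 7.18, 7.17 and 7.15 in the cultures. Neither overlapped between the groups, and neither passed (differences 0.31 and 0.25, limma adjusted p = 0.0826 and 0.111). Hoxd1 and Hoxd3, the anterior genes, were 6.45 to 6.64 and 6.21 to 6.46 in the lines, against 6.49 to 6.69 and 6.45 to 6.51 in the cultures. The limb patterning genes Hoxd10, Hoxd11, Hoxd12 and Hoxd13 differed by -0.12, 0.05, 0.16 and 0.11, with 95% intervals that end at -0.39 and 0.36 at the widest. The group means of all 9 Hoxd genes lay below the median of all values, and whether these genes were detected is not known. Hoxd11, a paralogue of Hoxa11, was 7.58, 7.43 and 7.38 in OS_493H, OS_494H and OS_716H, against 7.41, 7.33 and 7.52 in the cultures, with no line more than 0.15 from the nearer other line. Hoxc11, the other paralogue, was 8.07, 7.87 and 7.74 in the lines, against 7.63, 7.41 and 7.79 in the cultures.

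By position, 0 of 7 anterior genes (paralogues 1 to 3) rose and 1 fell, 2 of 14 central genes (4 to 8) rose and 2 fell, and 1 of 16 posterior genes (9 to 13) rose and 0 fell. The highest of these shares, 14.3% in 1 direction, stands near those of all genes.

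**Figure D5:**
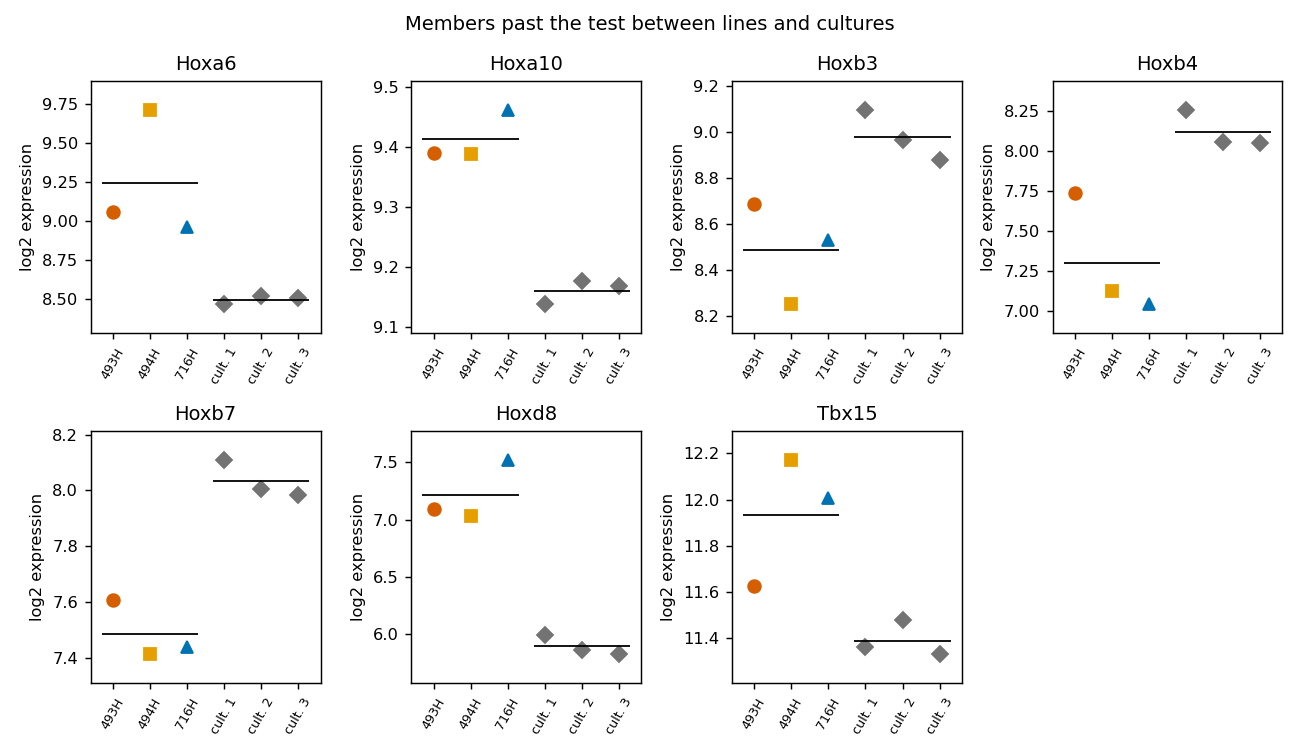
Log2 expression on each array (y axis; osteosarcoma lines left, KUSA4b10 cultures 1 to 3 right) for the 7 members that passed the test between the groups; horizontal bars are group means, n = 3 arrays. The groups do not overlap in any of these panels, and Hoxd8 has the widest separation, at 7.03 to 7.52 in the lines, against 5.83 to 5.996 in the cultures.

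Among the limb identity factors, Tbx15 rose. It was 11.62, 12.17 and 12.01 in OS_493H, OS_494H and OS_716H, against 11.36, 11.48 and 11.33 in the cultures, with no overlap. The difference was 0.55 ± 0.14 (SE, limma adjusted p = 0.036), and the call was lost when OS_494H, OS_716H or any 1 culture was left out. Pitx1, which specifies the hindlimb, stood at 8.08 in OS_493H, 9.63 in OS_494H and 9.39 in OS_716H, against 9.28, 9.26 and 9.17 in the cultures. OS_493H alone was low, by 1.09 below the lowest culture, and the difference of -0.21 did not pass (limma adjusted p = 0.756) and turned to 0.27 without OS_493H. The hip lines were on opposite sides of the cultures.

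Tbx4, the hindlimb T-box gene, was 7.04, 6.82 and 6.95 in the lines, against 6.87, 6.79 and 6.85 in the cultures. Tbx5, the forelimb gene, was 5.54, 5.96 and 5.85 in the lines, against 5.77, 5.9955 and 5.79 in the cultures. Neither passed (limma adjusted p = 0.444 and 0.76), with 95% intervals of the difference from -0.09 to 0.29 for Tbx4 and from -0.37 to 0.24 for Tbx5. Both lay below the median of all values in both groups.

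Hox proteins bind DNA together with cofactors of the Meis, Pbx and Pknox families. Of 9 listed cofactors 8 were measured. Of these 1 rose and 1 fell (12.5% each), beside 13.2% and 11.4% of all genes. Pbx3 was 11.30, 11.34 and 10.96 in OS_493H, OS_494H and OS_716H, against 10.28, 10.32 and 10.19 in the cultures, a difference of 0.94 ± 0.12 (SE, limma adjusted p = 0.00239). Meis3 was lower by a small amount (difference -0.29 ± 0.06 SE, limma adjusted p = 0.0195). Its call was lost when any 1 culture was left out (adjusted p up to 0.0821) and after median centring of each array. Meis1 was 10.33, 9.90 and 9.10 in the lines, against 9.13, 9.40 and 9.16 in the cultures, and Meis2 was 11.17, 10.44 and 9.63 in the lines, against 10.74, 10.49 and 10.89 in the cultures. In both, the order was OS_493H above OS_494H above OS_716H, and neither passed between the groups (limma adjusted p = 0.243 and 0.629). Among the members this order also occurred in Hoxb2, Hoxb4, Hoxc4, Hoxc6, Hoxc8, Hoxc9, Hoxc10, Hoxc11 and Hoxd11. The cofactor Pbx2 had it too (9.90, 9.75 and 9.73 in the lines), as did genes of the other lists, such as Cbx5, Mtx2, Osr1 and Grem1. Few orders of 3 lines are possible, so a shared order alone says little. How many of all genes share it was not counted, and whether these genes vary together was not tested. Some gaps in it were small, such as 0.01 in Hoxc9 and 0.05 in Hoxc10 between OS_493H and OS_494H. Meis1 passed without OS_716H (difference 0.88, limma adjusted p = 0.0131). The low Meis1 value of OS_716H was known, so this p describes the hip lines only. Pbx2 and Pbx4 differed by -0.05 and 0.08 and did not pass; the sign for Pbx2 flips after median centring (0.02).

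Of 18 listed genes and RNAs next to or within the Hox clusters, 15 were measured. Of these 2 rose (13.3%) and 0 fell, beside 13.2% and 11.4% of all genes. Cbx5, a heterochromatin protein gene near the Hoxc cluster, rose 2.07-fold (difference 1.05 ± 0.10 SE, limma adjusted p = 0.00119), and Mtx2, a mitochondrial import gene beside the Hoxd cluster, rose 1.31-fold (0.39 ± 0.09 SE, limma adjusted p = 0.0252). The call of Mtx2 was lost without OS_493H or any 1 culture (adjusted p up to 0.0738). The 6 Hox microRNA genes did not pass. Mir10a, which lies beside Hoxb4 and was picked out after its values were seen, stood at 4.09, 4.18 and 3.76 in the lines, against 4.41, 4.65 and 4.27 in the cultures (difference -0.43, limma adjusted p = 0.0805). All these values lay far below the median of all values (7.53), and whether Mir10a was detected is not known. Mir10b, at a similar level, differed by 0.05. Of 21 listed ParaHox genes and chromatin regulators of Hox genes, 19 were measured. Of these 1 rose (5.26%) and 4 fell (21.1%), beside 13.2% and 11.4% of all genes. Ezh2, the Polycomb methyltransferase, rose 1.88-fold (0.91 ± 0.09 SE, limma adjusted p = 0.00142). Kdm6b, a demethylase of the mark Ezh2 writes, and the Polycomb genes Cbx7, Bmi1 and Ring1 fell (differences -0.58, -0.54, -0.46 and -0.40, limma adjusted p = 0.00408, 0.0342, 0.00613 and 0.00806). The call of Cbx7 was lost when culture 1, culture 3 or any 1 line was left out (adjusted p up to 0.122). It was also lost after quantile normalisation and after median centring. These values stand beside the 6 of 6 proliferation genes that rose, and the part of growth state in them was not tested.

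Of 38 other listed limb genes, most of them transcription factors, 35 were measured. Among those 9 rose and 2 fell, or 25.7% and 5.71% beside 13.2% and 11.4% of all genes. This list, like the others, was chosen with earlier results of these data known, so its shares are a description and no separate support. Meox2, a homeobox gene of limb muscle and mesenchyme, stood at 10.76 in OS_493H, 8.01 in OS_494H and 10.67 in OS_716H, against 6.10, 6.14 and 6.13 in the cultures. It rose 12.9-fold (limma adjusted p = 0.011), and OS_494H stood well below the other lines. Without OS_494H the log2 difference was 4.60, against 3.69 with it. Whether the level in the cultures was above background is not known. Prrx2, a limb mesenchyme homeobox gene, rose 2.82-fold, Osr1 2.34-fold, Tbx3, which patterns the posterior limb bud, 1.98-fold and Twist1 1.97-fold (limma adjusted p = 0.00862, 0.00509, 0.0325 and 0.00687). The call of Tbx3 was lost without OS_494H or any 1 culture (adjusted p up to 0.108). Irx3, an early hindlimb patterning gene, fell, at 8.27, 8.88 and 8.76 in the lines, against 10.53, 10.34 and 10.67 in the cultures (difference -1.88 ± 0.17 SE, limma adjusted p = 0.0011). Of 16 listed genes of limb bud signalling 3 rose (18.8%) and 2 fell (12.5%), beside 13.2% and 11.4% of all genes. Wnt5a, a ligand of limb outgrowth, rose 5.17-fold and Bmp2 1.56-fold (limma adjusted p = 9.93e-04 and 0.00872). Fgf10, the mesenchymal signal that starts the limb bud, was 8.11 and 8.38 in OS_493H and OS_494H and 6.91 in OS_716H, against 6.29, 6.35 and 6.30 in the cultures (difference 1.49 ± 0.36 SE, limma adjusted p = 0.0251). Its hip lines were highest, and without OS_716H the difference was 1.93 (limma adjusted p = 0.001). OS_716H was known to be the lowest line in Fgf10, so that p describes the hip lines only. Grem1, a BMP antagonist of the limb bud, and Bmp4 fell 2.33-fold and 1.94-fold (limma adjusted p = 0.0484 and 0.0242). The calls of Fgf10, Grem1 and Bmp4 were lost when any 1 culture was left out (adjusted p up to 0.0874, 0.155 and 0.071), and each also without 1 or more of the lines.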

How the data were processed

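RNA of 6 samples was measured on Affymetrix Mouse Gene ST arrays with 1 colour, 1 array each. The deposited values are log2 expression values that the authors made with RMA, naming mm9 (both per the submitters' processing notes). The sources used here give no version of it. The log2 scale was read from the values, with array medians of 7.45 to 7.58. The deposited values were not equal in distribution, with array medians of 7.45 to 7.51 in the lines and 7.54 to 7.58 in the cultures. RMA gives no detection call. The number of arrays limits the precision.

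Of 35556 probe sets, 21789 had 1 gene symbol in the platform annotation, 1621 had several and 12146 were not listed. Per gene the probe set with the highest mean was used (19938 genes). All 41 member symbols matched RefSeq by gene identifier.

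Groups came from the titles. Lines and cultures were compared with limma 3.58.1 in R 4.3.3 (lmFit, eBayes, two-sided, all 6 arrays, no covariate), as the line minus culture log2 difference, adjusted over all genes. Gaps between single lines were described without a test. The fit was tested on simulated data. Members could all be named; from the other lists up to 6 called genes, largest difference first, and Meis and Pbx genes always. Members and lists were chosen with earlier results of these data known. Markers, Xist, Uty and Rb1 served to check the labels. Alternatives were other scalings, moderation, weights, filters, probe set rules, thresholds and leaving out arrays.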

Additional observations from a re-analysis of the deposited data

How the results depend on the processing

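No line has a matching culture, as the cultures are all samples of KUSA4b10, so no paired analysis was possible. The 4 members higher and 3 lower became 7 and 3 after quantile normalisation and 6 and 2 after median centring. They became 3 and 3 with an intensity trend in the moderation and 10 and 4 with array weights. At least a 2-fold change gave 1 and 0, and an adjusted p under 0.01 gave 1 and 1. Median centring lost the call of Hoxb3 and the intensity trend that of Hoxa10. Leaving out 1 array gave 1 to 5 higher and 1 to 5 lower; without any 1 culture only Hoxb7 and Hoxd8 of the members were called, while over all genes 1533 to 2086 were then higher and 1211 to 1793 lower. Members with 1 line apart from the other lines numbered 6, or 16 at a gap of 0.5 and 2 at a gap of 2; members with 1 line outside the cultures numbered 9, or 20 and 1. Restricted to members above the median of all values, an alternative chosen after seeing the data, they numbered 6 and 8. The median difference of all genes was -0.02, 0.03 after quantile normalisation and 0.04 after centring, where 3129 genes were higher and 1800 lower, against 2622 and 2274 as reported. Among the members and cofactors, signs turned only in genes that did not pass. The Hoxa4 log2 difference became 0.0223 by quantile normalisation and 0.0456 by centring, and the Hoxb13 log2 difference -0.0238 with array weights. The others turned by scaling or weights were Hoxd1 (0.0058 quantile, 0.0009 centred), Tbx5 (0.0213 quantile), Pbx2 (0.0169 centred) and Hoxc4 (0.0054, weights). With 1 array left out the difference ranged from -0.11 to 0.23 for Hoxa3, -0.0601 to 0.0414 for Hoxa4, -0.0618 to 0.49 for Hoxb9, -0.0360 to 0.0745 for Hoxb13, -0.20 to 0.0577 for Hoxc4, -0.17 to 0.39 for Hoxc6, -0.93 to 0.53 for Hoxc12, -0.51 to 0.14 for Hoxc13, -0.0119 to 0.0953 for Hoxd11, -0.51 to 0.27 for Pitx1, -0.16 to 0.0517 for Tbx5, -0.67 to 0.10 for Meis2 and -0.0260 to 0.19 for Pbx4. The cause was not tested.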
